A study of Bos taurus with 68 samples.

Results

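Liver gene expression on day 28 of lactation was set against day -65, before calving, in the same 5 cows. The comparison used every array labelled with either day: 20 of the 68 arrays of the series, which make up 10 cow-days among the 30 of the larger table of values. Both groups were liver of cows 6934, 6983, 7079, 7186 and 7188 (Bos taurus). They differed by day, 65 days before against 28 days after parturition, and no treatment or genotype is labelled for either. Breed, parity, diet and milk yield are not known here, nor is it known whether the cows were still in milk on day -65. On each 2-colour cDNA array, cDNA of 1 liver RNA was hybridised together with cDNA of a reference standard RNA. Liver carried Cy3 on 1 array of a cow-day and Cy5 on the other. These 2 arrays count as 1 replicate, and the cow is the unit of comparison. The values are log2 ratios of liver over reference. The labels do not state which dye is the numerator, so this direction is only likely, and every sign below turns if the ratio runs the other way.

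Before calving the fetus is the growing demand on the dam's metabolism. With the onset of lactation the udder draws large amounts of glucose, amino acids and fat. Ruminants absorb little glucose from the gut, so the liver makes it from propionate, lactate and amino acids by gluconeogenesis. At the same time, fatty acids released from adipose tissue reach the liver, where they are oxidised in mitochondria, turned into ketone bodies, or stored and exported as triglyceride. The growth hormone and IGF axis and the plasma proteins made by hepatocytes are also known to shift around calving. The lists described below follow these functions and the cell types that whole liver contains.

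The likely direction of the ratio was taken from hepatocyte genes, so their place above the reference is a matter of that choice and no check of the tissue label. With it, all 7 hepatocyte genes of a short list, such as transferrin (TF) and the bile acid transporter SLC10A1, lay above the reference on both days. Of 29 stellate cell and matrix genes, 6 lay above the reference on day -65 and 5 on day 28. Of the 3 tested genes of the adipose and muscle list, TPM1, TPM2 and DES, none did. No adipose gene of that list was tested, and DES stands in the stellate cell list as well. The arrays of the 10 cow-days gave values for 15192 to 16216 of 16416 rows. Exchanged arrays of a cow-day correlated below 0 before the sign was turned in all 10, from -0.53 on day 28 of cow 6983 to -0.003 on day 28 of cow 6934. The arrays of this last cow-day thus hardly opposed each other, and it was kept in the comparison. Of 5693 clones, called probes here, 5480 were measured on both days in at least 4 cows and were tested.

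Not a single probe was called. With limma, 0 of 5480 probes (0.0%) reached a Benjamini-Hochberg adjusted p under 0.05, and the smallest adjusted p was 0.470. An unadjusted p under 0.05 was found for 256 probes (4.67%), where 274 would be so by chance. Of these, 140 (2.55% of the tested probes) were higher on day 28 and 116 (2.12%) were lower. That split depended on the scaling: it was 226 higher and 28 lower with arrays not centred, 169 and 227 with arrays scaled to the same spread, and 188 and 260 after quantile normalization. The total depended on 2 cows as well, since 148 probes had such a p without cow 6934 and 627 without cow 7188, while none passed after adjustment in either case. The median 95% interval of a difference reached 0.50 log2 units to either side. In data simulated for the same probes and cow-days, the test called 11.9% of 67 probes that differed by 0.5 log2 units. It called 65.7% of 67 that differed by 1 and 97.0% of 66 that differed by 2. The simulated noise was independent between probes and dye orientations were not simulated. With fewer true changes, or with noise shared between probes, the shares called could be lower, so they are no measure of power in the real data. The values below are therefore descriptions of 5 animals, and every gene is named with a difference that missed the threshold.

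**Figure D1:**
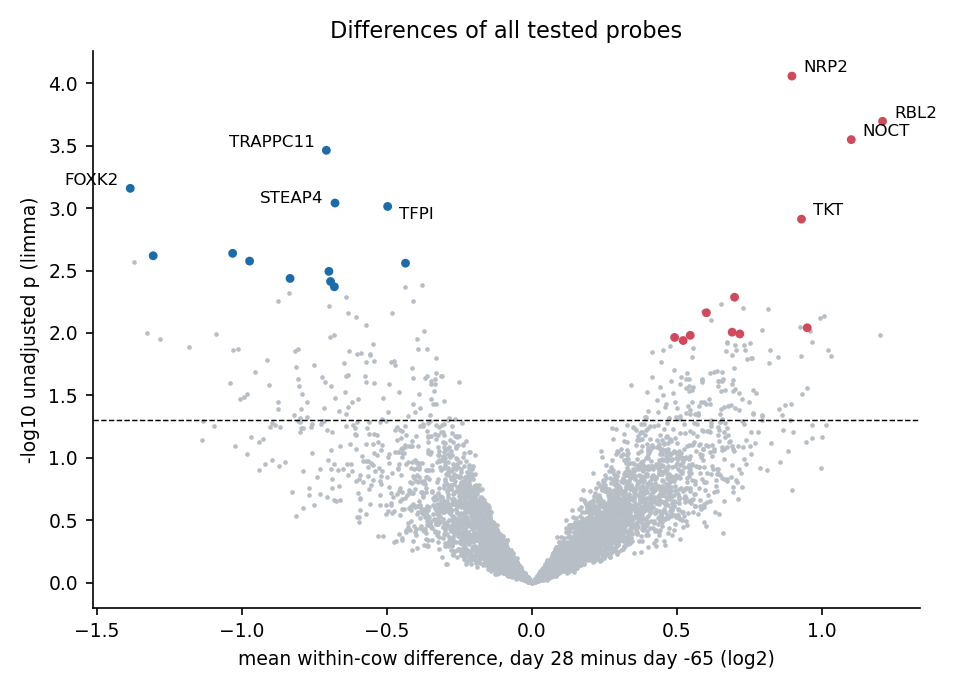
Each point is 1 of 5480 probes; the x axis is the mean within-cow difference, day 28 minus day -65, in log2 units, and the y axis is -log10 of the unadjusted limma p, with a dashed line at p = 0.05. Red and blue mark the 12 genes each way with the smallest p among those that differed the same way in all 5 cows; NRP2 lies highest, and none passes the adjusted threshold.

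In all 5 cows, 137 probes (2.5%) were higher on day 28 and 276 (5.04%) were lower. For 16 probes (0.292%) every day 28 value lay above every day -65 value, and for 25 probes (0.456%) every one lay below. Mean differences were above 0 for 2876 probes (52.5%) and below 0 for 2604 (47.5%). At least 2-fold higher means were fitted for 7 probes (0.128%) and at least 2-fold lower means for 16 (0.292%). Large mean differences were thus rare, and more probes had 1 sign in all cows on the lower side than on the higher side. These counts were made on centred arrays only, and without centring the median of all probes was 0.158 instead of 0.019. No chance level was computed for them, so a lack of overlap between days is a description below.

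Below, the 5 values of a day follow the order of cows 6934, 6983, 7079, 7186 and 7188, on the log2 ratio scale. Differences are given with the SE of the fit. This SE draws on the residual spread of all 30 cow-days and is not the spread of the 5 within-cow differences. The gene with the smallest p was NRP2, neuropilin 2, a co-receptor for semaphorins and vascular endothelial growth factors. It lay at -0.17, -0.20, 0.00, -0.52 and 0.02 on day -65 and at 1.21, 0.24, 0.62, 0.64 and 0.90 on day 28. All day 28 values were above all day -65 values, with a difference of 0.90 ± 0.19 (n = 5 cows, limma adjusted p = 0.470), or 1.86-fold. A second NRP2 probe differed by 0.19 ± 0.19 and was higher in 4 of 5 cows.

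RBL2, or p130, is a pocket protein of the retinoblastoma family that binds E2F factors in resting cells. Its values were -0.32, -0.29, -0.14, -0.56 and -0.11 on day -65 and 2.29, 0.31, 0.61, 0.99 and 0.43 on day 28. The days did not overlap, and cow 6934 stood highest on day 28. The difference was 1.21 ± 0.27 (n = 5 cows, limma adjusted p = 0.470).

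NOCT, nocturnin, is a clock-controlled enzyme studied for its part in lipid and energy metabolism. It lay at -0.51, -0.52, -0.39, -0.25 and -0.48 on day -65, a narrow range, and at 1.59, -0.10, 0.06, 0.96 and 0.84 on day 28. The days did not overlap, but day 28 split into cows 6983 and 7079 near 0 and the other cows well above it. The difference was 1.10 ± 0.26 (n = 5 cows, limma adjusted p = 0.470). The hour of sampling is not known here.

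TKT, transketolase of the non-oxidative pentose phosphate pathway, was low against the reference on day -65, at -0.84, -1.03, -1.48, -0.87 and -0.40. On day 28 it lay near the reference, at 0.22, -0.43, 0.20, -0.15 and 0.19. Each cow was higher on day 28, and only cow 6983 on day 28 fell below the highest day -65 value. The difference was 0.93 ± 0.25 (n = 5 cows, limma adjusted p = 0.838). It was 1.46 on arrays with liver in Cy3 and 0.40 on arrays with liver in Cy5.

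The other 8 of the 12 genes with the smallest p among those higher in all 5 cows differed by 0.49 to 0.95, each at an adjusted p of 0.892. They were SUPT16H, a subunit of the histone chaperone FACT (0.70 ± 0.23), the ribosomal proteins RPL27 (0.60 ± 0.20) and RPS15A (0.69 ± 0.25), and DUSP6, a phosphatase that inactivates ERK kinases (0.95 ± 0.33). CSF1, the growth factor of macrophages, differed by 0.72 ± 0.26, the dehydrogenase HSD17B8 by 0.55 ± 0.20, BCR by 0.49 ± 0.18 and CDCA4 by 0.52 ± 0.19. CDCA4 and BCR did not overlap between days: CDCA4 lay between -1.25 and -0.76 on day -65 and between -0.66 and -0.12 on day 28, and BCR between -1.09 and -0.97 and then between -0.90 and 0.02. Further probes of the same genes did not all follow. For DUSP6 they differed by -0.11, 0.44 and -0.31 and for HSD17B8 by -0.17, while those of RPL27 (0.48), RPS15A (0.54) and CSF1 (0.50) had the sign of the first probe.

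On the lower side the smallest p belonged to TRAPPC11, a subunit of the complex that tethers vesicles between the endoplasmic reticulum and the Golgi. It lay at -0.08, 0.44, -0.04, 1.01 and 0.95 on day -65 and at -0.19, 0.14, -0.90, 0.12 and -0.42 on day 28. Every cow was lower on day 28, but the days overlapped, with an SD between cows of 0.52 on day -65 and 0.43 on day 28. The difference was -0.71 ± 0.17 (n = 5 cows, limma adjusted p = 0.470).

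STEAP4, a membrane metalloreductase that is known to respond to nutrients and inflammation, lay at -0.09, -0.15, 0.28, 0.29 and 0.09 on day -65. On day 28 it lay at -0.66, -0.74, -0.67, -0.67 and -0.24, below every day -65 value. The difference was -0.68 ± 0.18 (n = 5 cows, limma adjusted p = 0.758).

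TFPI, the inhibitor of the tissue factor pathway of coagulation, was at -0.21, -0.30, -0.02, -0.21 and 0.10 on day -65 and at -0.78, -0.48, -0.41, -0.79 and -0.67 on day 28. These ranges did not overlap either. The difference was -0.50 ± 0.13 (n = 5 cows, limma adjusted p = 0.758). RCHY1, a ubiquitin ligase, also lay apart, between -0.36 and 0.16 on day -65 and between -0.81 and -0.42 on day 28, with a difference of -0.44 ± 0.13 (limma adjusted p = 0.892).

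FOXK2, a forkhead transcription factor, had the largest mean difference on the lower side among genes with 1 sign in all cows. It lay at 0.28, 1.16, 1.16, 1.42 and 1.80 on day -65 and at 0.07, -0.65, 0.00, -0.84 and 0.33 on day 28, a difference of -1.38 ± 0.35 (n = 5 cows, limma adjusted p = 0.758). Its other probe differed by 0.30 ± 0.28 and was higher in 4 of 5 cows. The probes of FOXK2 thus gave opposite signs.

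The remaining genes among the 12 with the smallest p that were lower in all cows differed by -0.68 to -1.31, at an adjusted p of 0.892. They were the ETS factor ETV5 (-1.03 ± 0.30), the carboxypeptidases CPA5 (-1.31 ± 0.38) and CPD (-0.68 ± 0.21), the kinase HIPK1 (-0.97 ± 0.29), PHLDA1 (-0.70 ± 0.21), the interleukin 17 receptor subunit IL17RC (-0.83 ± 0.26) and the ciliary protein IQCB1 (-0.69 ± 0.22). CPA5 rested partly on cow 6983, which lay at -3.08 on day 28 while the other cows lay between -0.60 and -0.02. Other probes of these genes differed by -0.14 for CPA5, -0.06 for CPD, -0.22 for HIPK1, -0.01 for PHLDA1, and -0.59 and 0.25 for IL17RC. All but 1 of them had the sign of the first probe, with a smaller size.

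**Figure D2:**
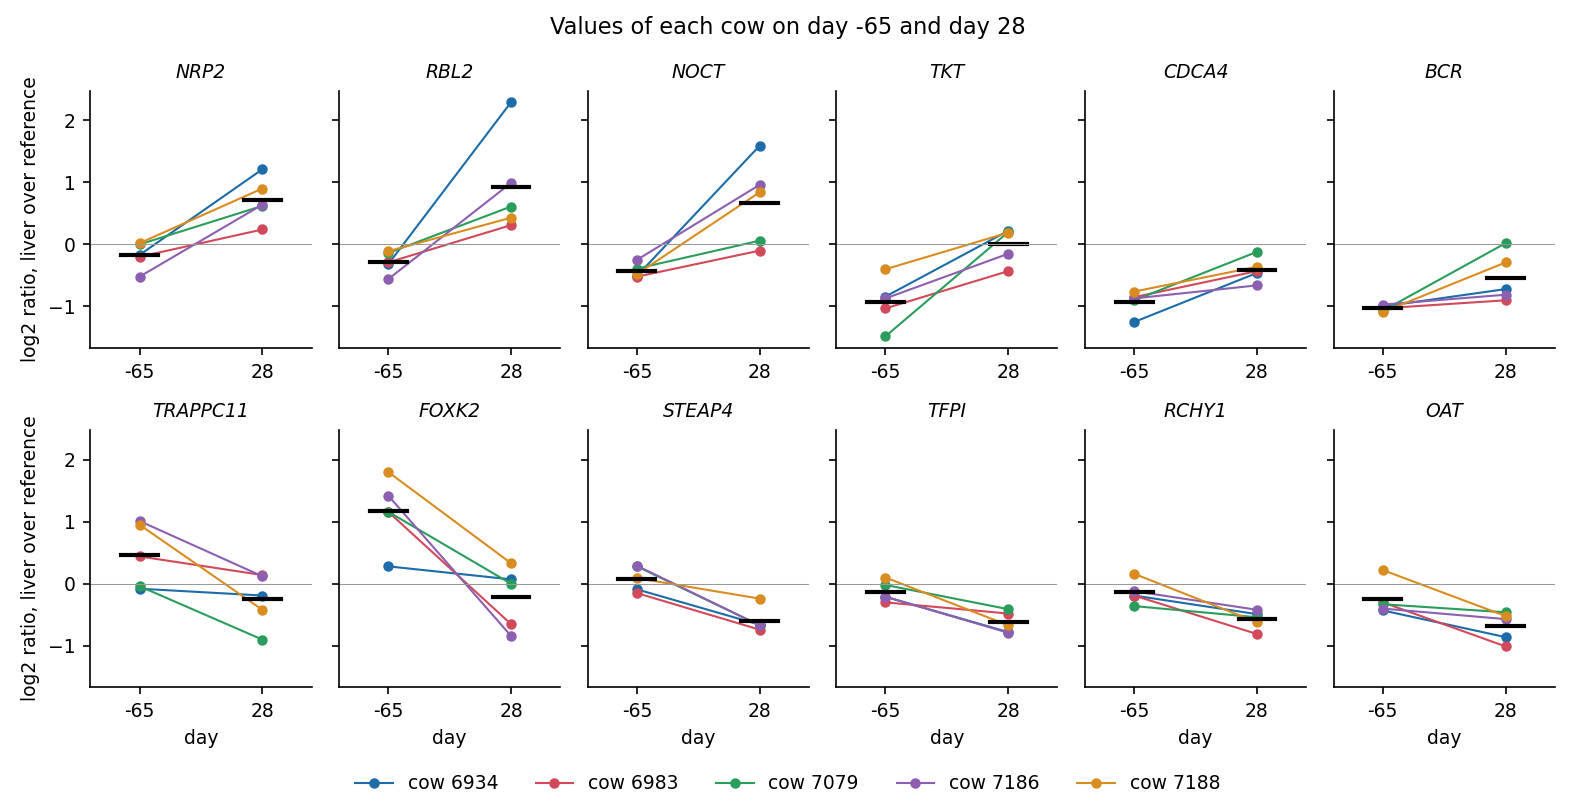
Log2 ratios of liver over reference on day -65 and day 28 for 12 genes, 1 coloured line per cow, with a black bar at the mean of the 5 cows. The upper row shows genes higher and the lower row genes lower on day 28 in all 5 cows. For NRP2, RBL2, NOCT, CDCA4 and BCR and for STEAP4, TFPI, RCHY1 and OAT the days do not overlap.

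The same genes were followed over the other days of the series (days -30 and 1: 5 cows; days -14 and 14: 3 cows; day 49: 4 cows). On 5 of these other cow-days the exchanged arrays did not oppose each other before the sign was turned: 2 of the 3 on day 14, 2 of the 4 on day 49 and 1 of the 5 on day 1. NRP2 was 0.25 ± 0.49 (SD) on day -30, -0.11 ± 0.06 on day -14, -0.21 ± 0.18 on day 1, -0.29 ± 0.29 on day 14 and 0.39 ± 0.29 on day 49. Its day 28 mean of 0.72 ± 0.36 was the highest of the 7 days. NOCT had a mean of 0.74 ± 0.39 on day -30, close to the 0.67 ± 0.69 of day 28, so that day -65 at -0.43 ± 0.11 was the low day. RBL2 likewise lay at 0.42 ± 0.53 on day -30 and at -0.07 ± 0.29 on day 49.

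On the lower side, STEAP4 was lowest on day 28 at -0.60 ± 0.20, against 0.02 ± 0.28 on day 1 and -0.07 ± 0.26 on day 49. TFPI was highest on day -65 at -0.13 ± 0.17 and lay between -0.54 and -0.25 on days -30, -14, 1, 14 and 49, with day 28 lowest at -0.62 ± 0.17. TRAPPC11 was 0.62 ± 0.23 on day -14 and 0.48 ± 0.31 on day 1, near its day -65 mean of 0.46 ± 0.52, and -0.12 ± 0.64 on day -30. For none of these 6 genes did the mean move in a single direction through all days from -65 to 28.

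**Figure D3:**
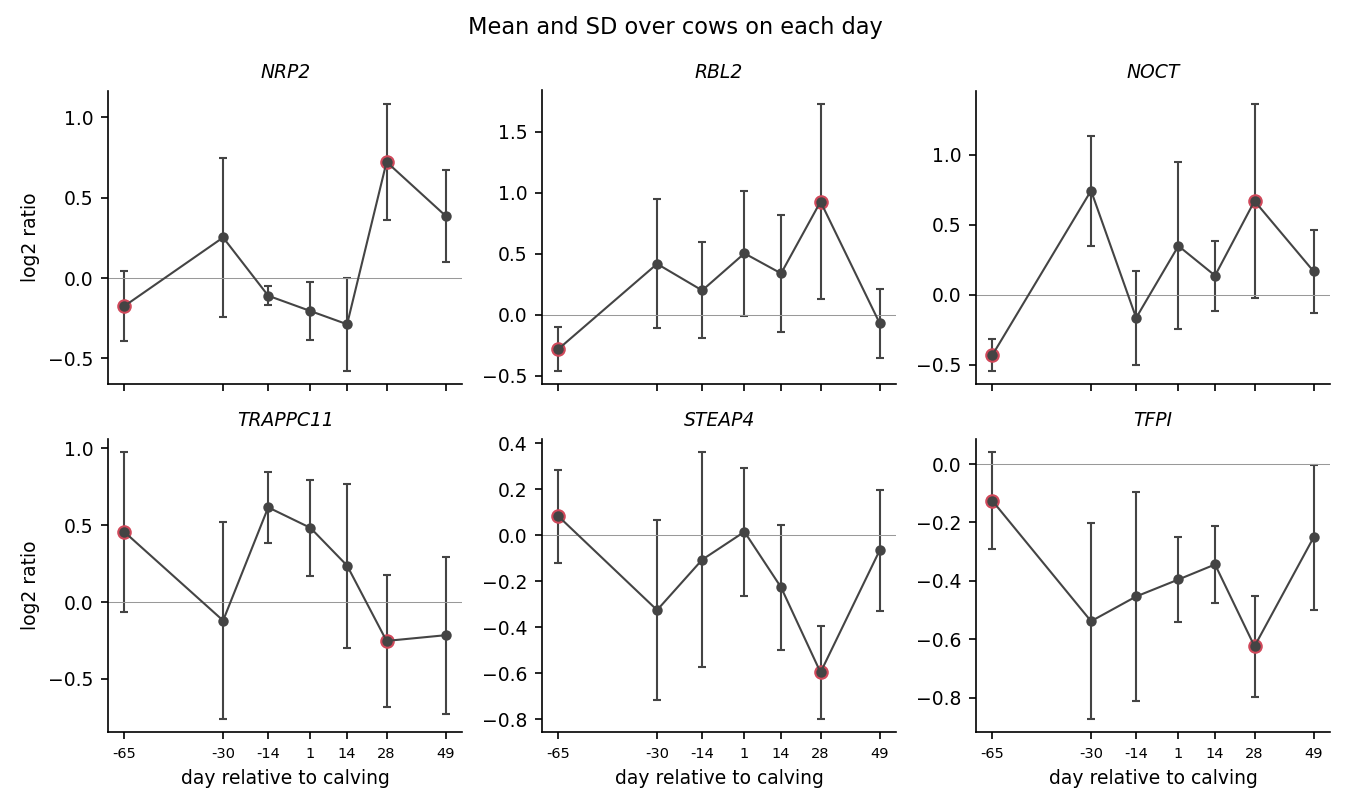
Mean log2 ratio of liver over reference on each of 7 days relative to calving for 6 genes; bars are the SD over the 3 to 5 cows of a day. Red points mark the days compared: NRP2 is highest on day 28, STEAP4 and TFPI are lowest there, and NOCT is about as high on day -30 as on day 28.

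The 2 dye orientations were compared next, since each gives a full estimate of the difference. Over the 5480 tested probes, the mean difference on arrays with liver in Cy3 correlated with that on arrays with liver in Cy5 at r = -0.045. The points share cows and RNA samples, and the value is a description. Within cows this correlation was -0.034, -0.004, 0.049, 0.253 and 0.085, highest in cow 7186. A single sign in both orientations was found for 46.2% of probes, 1433 of them higher and 1097 lower. Medians over all probes were 0.096 in Cy3 and -0.068 in Cy5. Counts at an unadjusted p under 0.05 were 394 higher and 188 lower with Cy3 alone, and 114 higher and 358 lower with Cy5 alone, with 0 past the adjusted threshold in either.

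Each of the 24 genes chosen for 1 sign in all cows also had 1 sign in both orientations, but by different amounts. NRP2 differed by 0.91 in Cy3 and 0.88 in Cy5, DUSP6 by 0.96 and 0.94, SUPT16H by 0.75 and 0.65, CDCA4 by 0.56 and 0.48, and CPD by -0.66 and -0.71. Others differed more between orientations. RPL27 differed by 1.06 in Cy3 and 0.14 in Cy5, TFPI by -0.22 and -0.77 and ETV5 by -0.40 and -1.66. The genes were chosen on the mean of both orientations, so the shared sign is a description only.

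**Figure D4:**
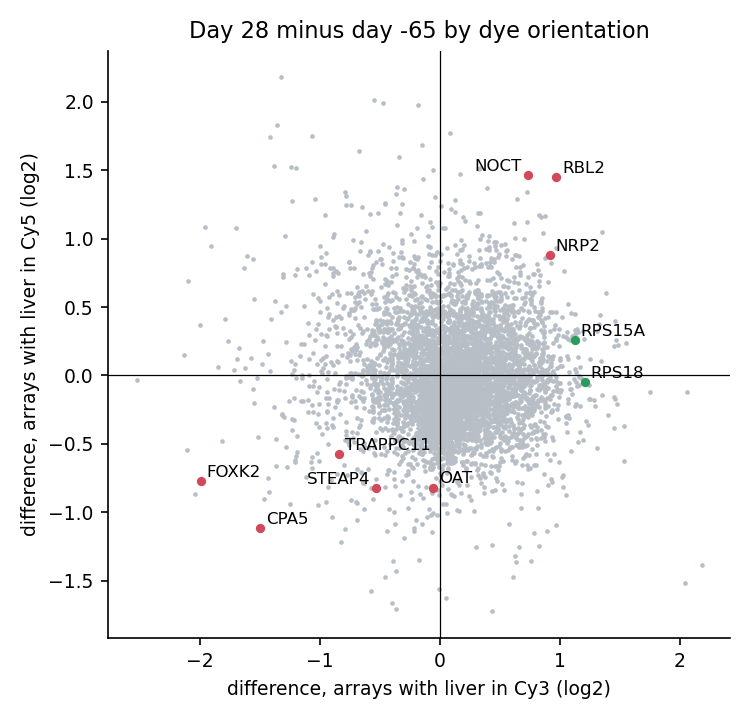
Each grey point is a tested probe; the x axis is its mean difference, day 28 minus day -65, on arrays with liver in Cy3 and the y axis that on arrays with liver in Cy5, both in log2 units. The cloud has no slope (r = -0.045); coloured points are named genes, of which NRP2 lies at 0.91 and 0.88 and RPS18 (green) at 1.21 and -0.05.

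The 5 cows did not share a common profile of differences. Over probes, correlations between pairs of cows ran from -0.43 (cows 7186 and 7188) to 0.34 (cows 6934 and 7186) with a median of 0.053, and 4 of 10 pairs were below 0. The SD over probes of a single cow's difference was 0.541 to 0.833, largest in cow 7186, against 0.297 for the mean of the cows. For 892 genes with at least 2 probes, the mean difference of a pair of probes correlated at r = 0.146. Probes that were higher on days -30 and 1 had slightly lower differences (r = -0.133).

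The glucose-making pathway was described first. Of 13 genes of gluconeogenesis and pyruvate fate, 10 (76.9%) had a mean difference above 0, beside 52.5% of all probes, and none had an unadjusted p under 0.05. The list's median difference was 0.28, against 0.02 for all probes. It was 0.27 with Cy3 alone and 0.25 with Cy5 alone. By cow it was 0.37, 0.20, 0.16, 0.53 and -0.42, so cow 7188 ran the other way. The median was 0.16 without cow 7186 and 0.14 after quantile normalization, and it stayed above 0 in all 18 alternatives. Those that changed only the block, the days fitted or the filters left it at 0.28, so they add no support.

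Within it, MCEE, an enzyme of the propionate route into the citrate cycle, lay at 0.24, 0.86, 0.42, 0.39 and 0.21 on day -65 and at 0.63, 1.48, 0.58, 0.66 and 0.60 on day 28. Each cow was higher on day 28, with overlap between cows and a difference of 0.37 ± 0.19 (limma adjusted p = 0.892). The mitochondrial aspartate aminotransferase GOT2 was also higher in 5 of 5 cows, by 0.29 ± 0.17 (other probe 0.27). Lactate dehydrogenase LDHA differed by 0.70 ± 0.39 and cytosolic malate dehydrogenase MDH1 by 0.56 ± 0.30, each higher in 4 of 5 cows. The 3 genes had an adjusted p of 0.892.

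PC, pyruvate carboxylase, which makes oxaloacetate from pyruvate, lay at -0.23, 0.18, -0.49, -0.31 and -0.40 on day -65 and at 0.32, -0.13, 0.61, 0.17 and -0.82 on day 28. It was higher in 3 of 5 cows, by 0.28 ± 0.22 on average (limma adjusted p = 0.892). The orientations disagreed, at 0.72 in Cy3 and -0.17 in Cy5. PDK4, the kinase that restrains pyruvate dehydrogenase, differed by 0.26 ± 0.40 and was likewise higher in 3 of 5 cows, at -0.26 in Cy3 and 0.77 in Cy5.

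Of 19 genes of glycolysis, glycogen and the pentose phosphate pathway, 12 (63.2%) were above 0, with a median of 0.16. The median was 0.15 in Cy3 and -0.16 in Cy5, and 0.07 without cow 7079. TKT, given above, was the only member with an unadjusted p under 0.05. Aldolase ALDOA differed by 0.54 ± 0.36 (other probe 0.10), PGK1 by -0.25 ± 0.16, lower in 5 of 5 cows, and sorbitol dehydrogenase SORD by -0.83 ± 0.61. By orientation ALDOA was at 1.24 in Cy3 and -0.17 in Cy5, and PGK1 at 0.02 and -0.52.

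For fatty acid oxidation and ketogenesis, 11 of 18 genes (61.1%) were above 0 and the median was 0.14, with 0 members at an unadjusted p under 0.05. The median was 0.01 in Cy3 and 0.19 in Cy5, -0.07 after quantile normalization, 0.005 without cow 7079 and 0.06 without cow 7186. CPT1A, which loads fatty acids for entry into mitochondria, was 1.86 ± 0.49 (SD) on day -65 and 1.99 ± 0.70 on day 28. Its difference was 0.13 ± 0.30, and a second CPT1A probe differed by -0.55 and was lower in 5 of 5 cows. CPT2, the partner enzyme on the inner membrane, was lower in 4 of the 4 cows measured on both days, by -0.64 ± 0.32 in a fit that also used the fifth cow's single day (limma adjusted p = 0.892).

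The acyl-CoA dehydrogenase ACADVL differed by 0.23 ± 0.23 and the acyl-CoA synthetase ACSL1 by 0.01 ± 0.51. SLC27A2, a fatty acid transporter and acyl-CoA synthetase, was higher in all 5 cows by 0.32 ± 0.21. The electron carriers ETFA and ETFDH, which pass electrons from fatty acid oxidation to the respiratory chain, differed by 0.42 ± 0.29 and 0.55 ± 0.34. None of the 95% intervals of the fit excluded 0 for these genes. For SLC27A2 the within-cow differences themselves were 0.38, 0.21, 0.26, 0.51 and 0.24.

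Lipid synthesis gave 10 of 22 members (45.5%) above 0 and a median of -0.02. The elongase ELOVL1 was lower in all 5 cows, by -0.27 ± 0.14, at -0.05 in Cy3 and -0.48 in Cy5. The triglyceride lipase PNPLA2 differed by -0.71 ± 0.36 (other probe 0.15) and the acyl-CoA binding protein DBI by 0.69 ± 0.39. Each had an adjusted p of 0.892.

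Cholesterol synthesis stood on 6 tested genes, 5 of them (83.3%) above 0, with a median of 0.36. The list median was above 0 in all 5 cows, from 0.15 in cow 7079 to 0.83 in cow 7186. In cows 7079 and 7188, however, 3 of the 6 genes were higher and 3 lower, and the list mean of cow 7079 went from 1.30 to 1.23. The median was 0.50 in Cy3 and 0.27 in Cy5, and the lowest of 18 alternatives gave 0.15. NSDHL, a sterol dehydrogenase of the pathway, lay at 1.94, 2.14, 1.82, 1.77 and 2.45 on day -65 and at 2.86, 2.78, 2.20, 3.19 and 2.36 on day 28. Cow 7188 was the exception to higher values on day 28, and the difference was 0.65 ± 0.30 (limma adjusted p = 0.892, unadjusted p = 0.040).

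FDPS, farnesyl diphosphate synthase, lay at 0.59, 0.85, 0.46, -0.08 and 1.08 on day -65 and at 1.63, 0.91, 0.79, 0.22 and 1.81 on day 28. All 5 cows were higher on day 28, with overlap between cows, and the difference was 0.49 ± 0.28. Lanosterol synthase LSS differed by 0.30 ± 0.30 and ACAT2, at the entry of the pathway, by 0.20 ± 0.24. The adjusted p was 0.892 for FDPS, 0.900 for LSS and 0.903 for ACAT2.

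**Figure D5:**
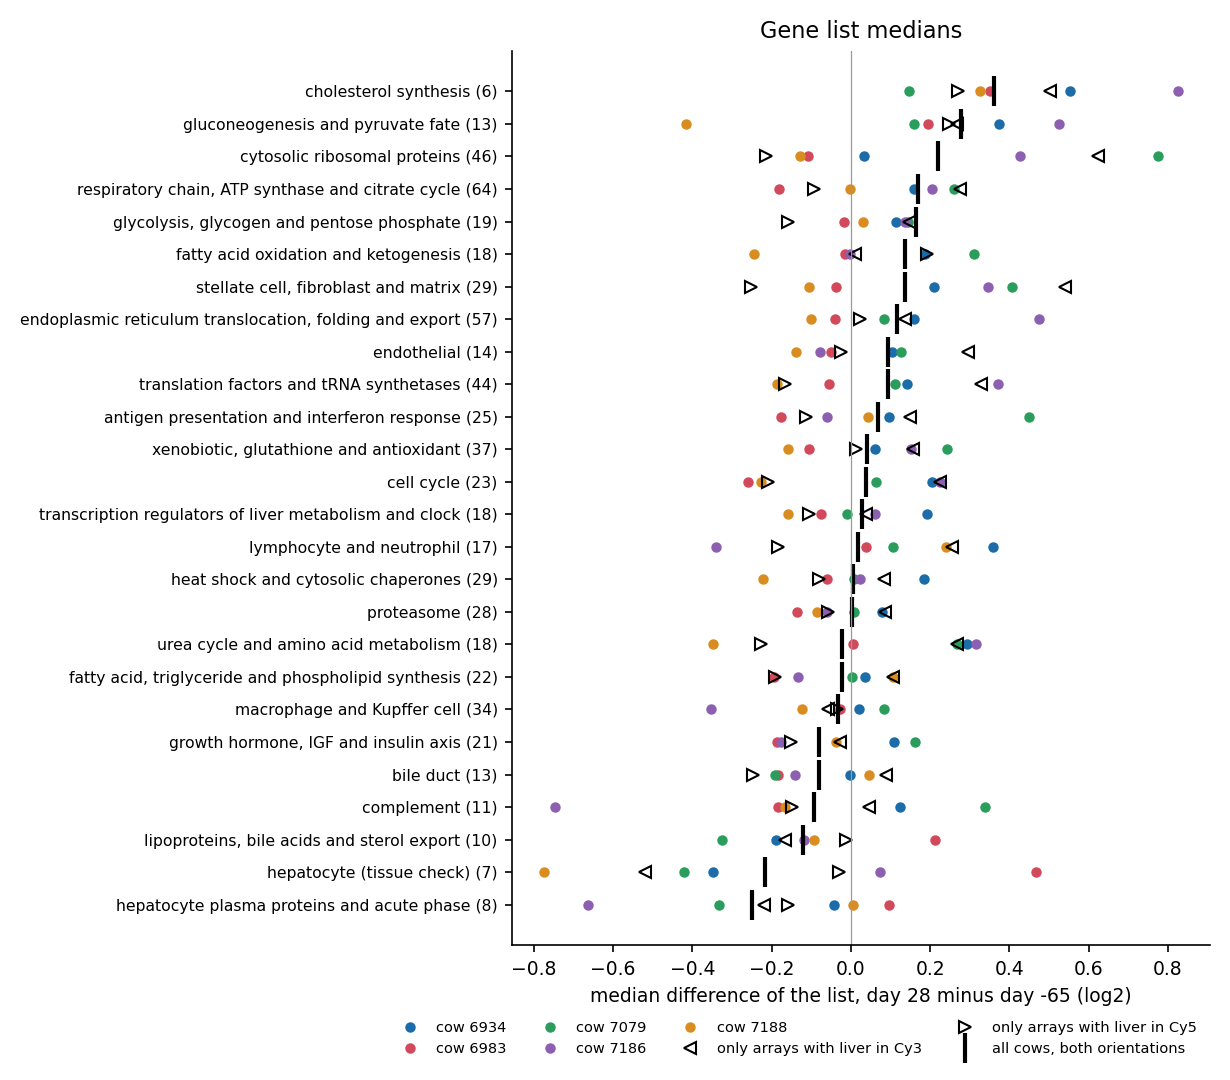
Median within-cow difference, day 28 minus day -65 in log2 units, for 26 gene lists with the number of tested genes in brackets: coloured points are single cows, black bars all cows, and triangles the arrays of a single dye orientation. Cholesterol synthesis is above 0 in all 5 cows, whereas the ribosomal list lies at 0.62 with liver in Cy3 and -0.21 with liver in Cy5.

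Lipoproteins, bile acids and sterol export had 4 of 10 members (40.0%) above 0 and a median of -0.12. APOA1, the main protein of high-density lipoprotein, differed by -0.09 ± 0.20, at -0.52 in Cy3 and 0.35 in Cy5. SLC10A1 differed by -0.69 ± 0.49, SCARB1, the receptor for high-density lipoprotein, by -0.49 ± 0.39 (4 cows with both days), and SOAT1, which esterifies cholesterol, by -0.26 ± 0.16. SOAT1 was lower in 5 of 5 cows, at 0.02 in Cy3 and -0.53 in Cy5. ABCC2, an export pump for bile, differed by 0.46 ± 0.41.

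Amino acid metabolism was split evenly, with 9 of 18 members (50.0%) above 0 and a median of -0.02, which was 0.27 in Cy3 alone and -0.23 in Cy5 alone. OAT, ornithine aminotransferase, lay at -0.43, -0.30, -0.33, -0.40 and 0.22 on day -65 and at -0.86, -1.01, -0.46, -0.57 and -0.52 on day 28, with no overlap. The difference was -0.44 ± 0.14 (limma adjusted p = 0.892, unadjusted p = 0.0043), but it was -0.06 in Cy3 and -0.82 in Cy5. The urea cycle enzymes ASS1 and ASL differed by -0.06 ± 0.23 and -0.32 ± 0.23, both above 0 in Cy3 (0.25 and 0.16) and below it in Cy5 (-0.37 and -0.80). AHCY, which clears S-adenosylhomocysteine, was lower in 5 of 5 cows by -0.46 ± 0.34, and MAT2A, which makes S-adenosylmethionine, differed by 0.55 ± 0.34.

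In the growth hormone, IGF and insulin axis, 7 of 21 members (33.3%) were above 0 and the median was -0.08. SHC1, an adaptor of receptor tyrosine kinases, was higher in 5 of 5 cows, by 0.34 ± 0.14, and IGF2 was lower in 5 of 5, by -0.27 ± 0.13 (other probes 0.08 and -0.34). The 2 genes had unadjusted p values of 0.026 and 0.049. IGFBP3, the main carrier of IGF in plasma, differed by 0.02 ± 0.17, while its other probes differed by -0.73 (lower in 5 of 5 cows) and 0.05. The phosphatase PTPN1, which acts on the insulin receptor, differed by -0.38 ± 0.18 and its other probes by 0.18 and 0.18. IGFBP5 differed by -0.69 ± 0.43, with 4 cows measured on both days.

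Plasma proteins of hepatocytes had 2 of 8 members (25.0%) above 0 and a median of -0.25, below 0 in all 18 alternatives. Here too, alternatives that changed only the block, the days fitted or the filters left the median at -0.25. The list's median was above 0 in cows 6983 and 7188, at 0.10 and 0.01, and was -0.66 in cow 7186. TFPI was the only member with an unadjusted p under 0.05, and hepatocytes are not its main source, since endothelium makes most of it. Ceruloplasmin (CP) was 5.05 ± 1.16 (SD) on day -65 and 4.58 ± 1.23 on day 28, RBP4, the retinol carrier, 5.24 ± 0.89 and 4.64 ± 1.05, and SERPINA3-3 5.80 ± 0.92 and 5.66 ± 0.78. TF was 4.01 ± 0.43 and 4.06 ± 0.37. All 4 differed by less than the SD between cows of a day, which is not the spread of the within-cow differences. For RBP4 the difference was -0.60 ± 0.60 with the SE of the fit. In the hepatocyte check list, 1 of 7 genes (14.3%) was above 0, with a median of -0.22 that was -0.52 in Cy3 and -0.03 in Cy5, and rounded to 0 without cow 7188.

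Complement genes were above 0 for 4 of 11 (36.4%), with a median of -0.09 that ran from -0.75 in cow 7186 to 0.34 in cow 7079. C4A lay at 2.79, 3.35, 1.98, 3.10 and 1.88 on day -65 and at 1.75, 1.84, 2.32, 1.71 and 1.51 on day 28. It was lower in 4 of 5 cows, by -0.80 ± 0.40 (limma adjusted p = 0.892). C1R was lower in 5 of 5 cows, by -0.77 ± 0.55, and C1S, its partner protease, was higher in 5 of 5, by 0.49 ± 0.40. By orientation C1R was at -1.21 in Cy3 and -0.32 in Cy5, and C1S at 0.06 and 0.93. The C1q chains C1QA, C1QB and C1QC differed by -0.30 ± 0.44, -0.24 ± 0.47 and -0.09 ± 0.41. Second probes of C1QB and C1QC differed by 0.19 and 0.13.

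Markers of the other cells of the liver were read next; in whole liver RNA, a change in the number of cells of a type and a change in RNA per cell cannot be told apart. Of 17 lymphocyte and neutrophil genes, 9 (52.9%) were above 0 with a median of 0.02, and 3 had an unadjusted p under 0.05, all higher, beside 2.55% of all probes. S100A12, a calcium-binding protein of neutrophils, lay at 0.10, 1.42, 1.86, 1.59 and -0.19 on day -65 and at 1.98, 2.30, 2.94, 1.21 and 1.18 on day 28. Cow 7186 was the exception to higher values, and the difference was 0.97 ± 0.35 (limma adjusted p = 0.892).

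CD3D, a chain of the T cell receptor complex, lay at 1.03, 1.03, 1.22, 1.25 and -0.28 on day -65 and at 1.30, 1.56, 2.12, 0.91 and 1.59 on day 28. The difference was 0.65 ± 0.27, again with cow 7186 lower. CORO1A, an actin regulator of leukocytes, was higher in 5 of 5 cows, by 0.76 ± 0.29, and CD8A, of cytotoxic T cells, in 4 of 5, by 0.68 ± 0.36. The mean of the whole list ran from -0.07 to 0.44 over cows on day -65 and from 0.19 to 0.66 on day 28. Its median was 0.25 in Cy3 and -0.18 in Cy5. The 4 named genes are those of smallest p in the list, and 8 of its 17 members were lower on day 28.

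Of 34 macrophage and Kupffer cell genes, 15 (44.1%) were above 0 with a median of -0.03. FCGR3A, an Fc receptor found on macrophages and natural killer cells, was higher in 4 of 5 cows, by 0.70 ± 0.26 (unadjusted p = 0.014), and lay between 0.74 and 1.63 on day -65 and between 1.34 and 2.92 on day 28. Of the defining markers, CD68 differed by -0.02 ± 0.24, CD14 by -0.07 ± 0.28 and VSIG4 by -0.03 ± 0.29. Second probes of CD14 and VSIG4 differed by -0.07 and 0.36. Antigen presentation and interferon genes were above 0 for 17 of 25 (68.0%), with a median of 0.07 that was 0.15 in Cy3 and -0.11 in Cy5, and 0.005 without cow 6934 and 0.007 without cow 7079. PSMB8, a subunit of the immunoproteasome, differed by 0.62 ± 0.40 and the class I gene BOLA by 0.38 ± 0.25.

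Stellate cell and matrix genes were above 0 for 20 of 29 (69.0%), with a median of 0.14. The orientations gave opposite medians, 0.54 in Cy3 and -0.25 in Cy5, and the median was 0.05 without cow 6934. COL3A1, a chain of fibrillar collagen, was higher in 5 of 5 cows, at -3.07, -3.78, -3.85, -3.47 and -2.73 on day -65 and -2.40, -3.22, -2.64, -2.78 and -2.44 on day 28. Its difference of 0.68 ± 0.36 was 1.25 in Cy3 and 0.12 in Cy5. COL1A2 differed by -0.07 ± 0.46 and its other probe by 0.72, and VIM by 0.44 ± 0.41 and 0.58. The first VIM probe was at 0.98 in Cy3 and -0.10 in Cy5.

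COL4A2, a chain of basement membrane collagen, went the other way. It lay at 1.06, -0.30, 1.21 and 1.16 in the first 4 cows on day -65, with no value for cow 7188, and at 0.19, -0.28, -1.54, -0.79 and -0.99 on day 28. The fitted difference, which also used the single day of cow 7188, was -1.37 ± 0.40 (limma adjusted p = 0.892). Laminin LAMB1 differed by 0.64 ± 0.27, desmin DES by 0.54 ± 0.22 (other probe -0.02) and decorin DCN by 0.66 ± 0.34, each higher in 4 of 5 cows. The matrix members of smallest p therefore held both signs.

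Endothelial genes were above 0 for 8 of 14 (57.1%), with a median of 0.09. AQP1, a water channel of endothelium and bile ducts, lay between -0.05 and 0.16 on day -65 and between -0.39 and -0.09 on day 28. The days did not overlap, and the difference was -0.25 ± 0.10 (unadjusted p = 0.025). Bile duct genes were above 0 for 6 of 13 (46.2%), with a median of -0.08 and the claudins CLDN4 and CLDN7 at -0.24 ± 0.17 and 0.20 ± 0.20. The single erythroid gene tested, GYPC, differed by 0.31 ± 0.31. The 3 tested genes of the adipose and muscle list, TPM1, TPM2 and DES, were all at or below the reference and differed by 0.10 to 0.54. None of them is an adipose gene, and the 0.54 is the DES probe given above.

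Of 46 cytosolic ribosomal protein genes, 36 (78.3%) were above 0, with a median of 0.22. The orientations gave opposite signs: the median was 0.62 in Cy3 and -0.21 in Cy5. By cow it was 0.03, -0.11, 0.78, 0.43 and -0.13, and it was 0.09 without cow 7079 and 0.13 without cow 7186. RPS15A lay at -1.21, -1.14, -1.55, -1.66 and -1.18 on day -65 and at -0.64, -0.84, -0.23, -0.45 and -1.12 on day 28, just without overlap. RPS18 also did not overlap, with a difference of 0.58 ± 0.26 that was 1.21 in Cy3 and -0.05 in Cy5, and RPS9 was lower in 5 of 5 cows, by -0.33 ± 0.13. Ribosomal protein genes have many processed pseudogenes, so related transcripts can share a cDNA probe's signal.

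The respiratory chain, ATP synthase and citrate cycle had 45 of 64 members (70.3%) above 0 and a median of 0.17, which was 0.27 in Cy3 and -0.09 in Cy5, and 0.08 without cow 7079 and 0.06 without cow 7186. The ATP synthase subunits ATP5F1D and ATP5PF differed by 0.43 ± 0.23 (0.98 in Cy3 and -0.12 in Cy5) and 0.41 ± 0.23. NDUFV1 of complex I and the adenine nucleotide carrier SLC25A6 were lower in 5 of 5 cows, by -0.35 ± 0.20 and -0.33 ± 0.14. Translation factors and tRNA synthetases were above 0 for 29 of 44 (65.9%) with a median of 0.09, which was 0.33 in Cy3 and -0.17 in Cy5, and 0.05 without cow 7079 or cow 7186. EIF2AK4, the kinase that senses uncharged tRNA, was lower in 5 of 5 cows by -0.35 ± 0.15, and its other probe differed by -0.31.

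Of 57 genes of endoplasmic reticulum translocation, folding and export, 34 (59.6%) were above 0 with a median of 0.12, and 0 had an unadjusted p under 0.05. The median was -0.003 without cow 7186, with 28 above 0 and 29 below, 0.05 without cow 6934 and 0.03 after quantile normalization. SRP14 of the signal recognition particle and the cargo receptor subunit MCFD2 were higher in 5 of 5 cows, by 0.40 ± 0.20 and 0.40 ± 0.22. Heat shock genes were above 0 for 15 of 29 (51.7%) and proteasome genes for 14 of 28 (50.0%), with medians of 0.01 and 0.003. All 4 probes of HSPB1, a small heat shock protein, were below 0, at -0.37, -0.20, -0.41 and -0.41.

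Xenobiotic, glutathione and antioxidant genes were above 0 for 22 of 37 (59.5%), with a median of 0.04 that was -0.03 without cow 7186. PRDX4, the peroxiredoxin of the endoplasmic reticulum, lay at -0.67, -0.39, -0.91, -0.92 and -0.98 on day -65 and at 0.31, -0.52, 0.15, -0.27 and -0.46 on day 28. Cow 6983 was the exception, and the difference was 0.62 ± 0.21 (limma adjusted p = 0.892, unadjusted p = 0.0079). PRDX2 was lower in 5 of 5 cows, by -0.33 ± 0.16. Plasma glutathione peroxidase GPX3 differed by 1.00 ± 0.62, with a day 28 SD of 1.98 between cows. Catalase (CAT) differed by -0.22 ± 0.45 and the glutathione S-transferase LOC327709 by -0.20 ± 0.26.

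Among transcription regulators of metabolism and the clock, 10 of 18 (55.6%) were above 0 with a median of 0.03. NCOR1, a co-repressor of nuclear receptors, lay within 0.23 to 0.27 in the 5 cows on day -65 and between -0.52 and 0.17 on day 28. No day 28 value reached those of day -65, the difference was -0.35 ± 0.17, and the other NCOR1 probe differed by -0.33. FOS, an immediate early gene, was lower in 5 of 5 cows, by -0.46 ± 0.29, and KLF10 differed by 0.56 ± 0.29. Cell cycle genes were above 0 for 13 of 23 (56.5%) with a median of 0.04. The replication helicase subunit MCM4 was lower in 5 of 5 cows, by -0.35 ± 0.20, while STMN1 differed by 0.97 ± 0.51, at 2.05 in Cy3 and -0.12 in Cy5.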

How the data were processed

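Liver RNA and a reference standard RNA were labelled with Cy3 and Cy5. Per the labels, images came from a Scanarray 4000 scanner and were processed in GenePix 4.0. For each spot the authors deposited a log2 ratio of both channels. How background, flags and normalization were handled is not given in the sources used here. Precision is limited by the number of cows, 5 in this comparison. No intensities were used. Only the larger of the 2 deposited tables was used, since both days lie in it, and 0 of its columns were left without a sample.

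Array medians were set to 0, ratios of arrays carrying liver in Cy3 were negated, and the 2 spots of a clone and the exchanged pair were averaged, both arrays being required. Of 5693 clones, 5598 named 1 gene, and 95 naming several were tested but never named. Symbols of 5591 clones were updated to the gene table of the ARS-UCD assembly. Fits used limma 3.58.1 in R 4.3.3, with day and cow as fixed terms over 30 cow-days (19 residual degrees of freedom), 2-sided, with Benjamini-Hochberg adjustment over 5480 probes and a threshold of 0.05. Days are paired within cow, as both come from 1 animal, and p-values measure the spread among these cow-days. Probes needed both days in at least 4 cows.

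The members and gene lists were chosen with earlier results of these data known. Genes were named as follows: up to 15 each way past the threshold (there were none), the 12 each way with the smallest p among probes differing 1 way in all 5 cows, up to 4 per list by p, and a fixed set of metabolic and cell type genes. A gene with several probes is represented by the most completely measured. The fit was tested on simulated data for the same 5480 probes, with 6 false calls among 122. Alternatives changed the block, the days fitted, centring, scaling, dye orientation, weights, filters and cows.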

Additional observations from a re-analysis of the deposited data

Results flagged for a closer look

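For each named gene and each day, the highest or lowest cow was compared with the nearest other cow, and so were 2 array measures on each day (the correlation of exchanged arrays and the SD over clones). In 27 of 294 such groups (9.2%) the gap took up more of the group's range than Dixon's 95% critical value allows, where chance gives about 1 in 20. None of the 27 was an array measure. Cow 7188 held 10 of them, cow 6983 held 8, cow 7186 held 5, and cows 6934 and 7079 held 2 each.

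On day -65, cow 7188 was lower than the other cows in DUSP6 (-0.54), CSF1 (-1.06), PSMB8 (-1.24) and CD3D (-0.28), and higher in IL17RC (1.34), OAT (0.22) and VIM (-4.16). Low day -65 values of this cow thus enter 4 of the higher differences, those of DUSP6, CSF1, PSMB8 and CD3D. On day 28 it was higher in STEAP4 (-0.24) and lower in MAT2A (-0.32) and DCN (-1.23).

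Cow 6983 stood apart on day 28 in CPA5 (-3.08), MCEE (1.48), GOT2 (1.31), STMN1 (-4.30), ASGR2 (3.84) and C1QA (3.32), and on day -65 in PNPLA2 (-0.62) and COL4A2 (-0.30). Cow 7186 stood apart on day -65 in ETFA (-0.40), IGFBP5 (1.26), ANXA4 (-0.47), CCT8 (-2.64) and PDK4 (0.16). Cow 6934 did so on day -65 in CDCA4 (-1.25) and IGF2 (-0.03), and cow 7079 on day 28 in PRDX2 (-0.34) and RPS18 (-0.05).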

How the results depend on the processing

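No probe passed the adjusted threshold in any of 18 alternatives, with smallest adjusted p values from 0.166 (array weights) to 0.997 (without cow 6934). The number with an unadjusted p under 0.05, 256 as reported, was 396 with arrays scaled to 1 median absolute deviation, 448 after quantile normalization, 582 with Cy3 alone, 472 with Cy5 alone, 621 with array weights, 479 with unlisted rows tested as well (9649 tested), and 148 to 627 with 1 cow left out. Without the replicate block for cow it was 201, and 281 with cow as a random block (correlation 0.149), and the block changed no call. With only days -65 and 28 in the fit, which leaves 4 residual degrees of freedom, it was 292. The smallest limma adjusted p was then 0.855. Of 145 named genes, 104 kept their sign in every alternative, among them all 24 chosen for the smallest p with 1 sign in all 5 cows. For these 24 the choice itself fixes the sign when 1 cow is left out. A change of only the block or the days fitted cannot turn it either, so their kept sign is largely a matter of the choice. PGK1, SOAT1 and RPS18, which also had 1 sign in all 5 cows, changed sign in 1 alternative each.

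Of 504 recomputed list medians, 24 moved by more than the SD over cows. Without centring they were 0.302 for glycolysis, 0.116 for lipid synthesis, 0.231 for endothelial, 0.059 for bile duct, 0.167 for transcription regulators and 0.142 for proteasome genes, since the median of all probes was then 0.158. With Cy3 alone they were 0.105 for lipid synthesis, 0.267 for amino acid metabolism, 0.541 for matrix, 0.295 for endothelial, 0.089 for bile duct, 0.623 for ribosomal and 0.329 for translation genes. With Cy5 alone they were -0.159 for glycolysis, -0.192 for lipid synthesis, -0.252 for matrix, -0.024 for endothelial, -0.246 for bile duct, -0.209 for cell cycle, -0.213 for ribosomal, -0.166 for translation and -0.094 for respiratory chain genes. Glycolysis was 0.256 with array weights and 0.070 to 0.185 with 1 cow left out. The cause was not tested. Medians of 22 of 28 lists changed sign in some alternative, and those of gluconeogenesis, cholesterol synthesis, plasma proteins, the hepatocyte check, adipose and muscle, and erythroid genes did not. Changes of only the block or the days fitted left list medians almost as they were, so a kept sign there carries little weight.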
